A study of Mus musculus with 9 samples.

Results

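Complement is a system of plasma proteins and cell surface receptors, and 8 of its genes are described here in mouse dendritic cells (DC): the C1q chains C1qa, C1qb and C1qc, the central component C3, the alternative pathway genes Cfb and Cfp, and the anaphylatoxin receptors C3ar1 and C5ar1. They were found by gene symbol among the probe sets to which the platform annotation gives exactly 1 symbol. This named 7 of the 8 genes through 10 of 20380 such probe sets, out of 12393 genes in all, and C3 was not analysed here. C1qb had 3 probe sets, C3ar1 had 2 and each of the other genes had 1.

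Expression was measured on 9 one-colour Affymetrix arrays hybridized with biotin-labelled total RNA, 3 each of untreated, TSA treated and butyrate treated cells. All the cells were Flt3L-elicited DC: they were taken from mice aged 6 to 8 weeks that bore B.16 (melanoma) tumours expressing the DC growth factor Flt3L, and were enriched from spleen with magnetic beads against CD11c. Trichostatin A (TSA) and butyrate, a short-chain fatty acid, both inhibit histone deacetylases, and the design asks how each changes expression relative to no treatment. The labels give no mouse strain, dose, time or statement that replicates came from separate mice or cultures, so the p-values measure the spread between these samples, which may be technical.

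C1q is the recognition protein of the classical pathway. It is built from A, B and C chains encoded by neighbouring genes, and in tissues it is made mainly by macrophages and some DC. The alternative pathway amplifies C3 cleavage with factor B, a protease, and properdin (Cfp), which stabilizes its convertase. Cleavage releases the peptides C3a and C5a, which act on myeloid cells through the G protein-coupled receptors encoded by C3ar1 and C5ar1.

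Promoter sequences from RefSeq (mouse build GRCm38.p6) were matched by symbol for 5 of the 7 genes. Those of C3ar1, the gene with the largest change, and of C1qb and C1qc, neighbours on chromosome 4 that moved in the same direction, are shown as the 250 bases before the transcript start, all on the minus strand. They lie at chr6:122856158-122856407 (C3ar1), chr4:136886201-136886450 (C1qb) and chr4:136892915-136893164 (C1qc). Capitals mark matches, on either strand, to any of 5 motifs.
C3ar1: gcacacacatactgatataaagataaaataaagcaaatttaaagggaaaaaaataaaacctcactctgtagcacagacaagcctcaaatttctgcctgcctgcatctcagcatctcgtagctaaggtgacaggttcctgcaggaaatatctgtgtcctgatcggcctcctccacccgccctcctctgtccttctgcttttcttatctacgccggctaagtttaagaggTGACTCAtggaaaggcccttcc
C1qb: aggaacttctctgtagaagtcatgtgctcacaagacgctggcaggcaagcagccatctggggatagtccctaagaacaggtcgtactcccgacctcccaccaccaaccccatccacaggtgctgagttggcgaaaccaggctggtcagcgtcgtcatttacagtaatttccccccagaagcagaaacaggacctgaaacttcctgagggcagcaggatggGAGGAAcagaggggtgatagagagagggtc
C1qc: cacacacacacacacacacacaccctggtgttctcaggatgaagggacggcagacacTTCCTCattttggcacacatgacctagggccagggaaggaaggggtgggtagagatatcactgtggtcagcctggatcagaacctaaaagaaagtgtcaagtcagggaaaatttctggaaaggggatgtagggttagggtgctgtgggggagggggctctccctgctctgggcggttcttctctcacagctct

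The motifs searched were TGANTCA (the AP-1 element), GAGGAA (a PU.1 core), TTGCNNAA (a C/EBP site), an interferon-stimulated response element and an NF-kB site, and no matches overlapped. The C3ar1 promoter held 1 AP-1 match, TGACTCA, 22 to 16 bases before the start, and 6.75% of the 32851 promoter windows of the same length held at least 1. The C1qb promoter held 1 PU.1 match 30 to 25 bases before the start, and that of C1qc 1 on the opposite strand 193 to 188 bases before it, against 23.3% of all windows. The windows of Cfp and C5ar1 had no match to any of the 5. The other motifs, present in 2.98% (interferon response), 0.356% (NF-kB) and 9.56% (C/EBP) of windows, were not found in the 5 windows. A match describes letters in the window and is not evidence of binding.

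Levels are deposited log2 values, so a difference of 1 is 2-fold. Where a gene had several probe sets, the brightest on average stands for it. Changes are given with limma's standard error (SE), and a gene was called where limma's adjusted p, by Benjamini-Hochberg over the 12393 genes, was under 0.05. Array medians lay between 6.698 and 6.746. The DC genes Itgax (CD11c), Flt3, Cd74 and H2-Ab1 were all above the array medians in untreated cells, with Itgax at 9.12 to 9.31 on the 3 arrays. Spike-in transcripts added before hybridization averaged 0.415 higher on the butyrate than on the untreated arrays and 0.0144 higher on the TSA arrays. Shifting arrays to equal spike-ins therefore lowers every butyrate change by 0.415 and moves the median butyrate change of all genes from 0.0845 to −0.331. The calls with butyrate split into 4166 higher and 3075 lower on the deposited scale (57.5% higher) and 9.97% were higher on that scale. Changes with butyrate are given below on the deposited scale, with the spike-in scale where it alters a call or a direction.

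All 7 complement genes had negative changes with both treatments. With TSA, 6 of the 7 fell (C1qa, C1qb, C1qc, Cfp, Cfb and C3ar1), where 21% of all genes tested were called lower and 26.3% higher. All 6 had every TSA array below every untreated array, as had 23.9% of all genes. Their changes ran from −1.23 (C3ar1) to −0.19 (C5ar1, not called), with a median of −0.45 against 0.03 over all genes. With butyrate, 4 of the 7 fell (C1qa, C1qc, Cfp and C3ar1), where 24.8% of all genes were called lower and 33.6% higher. In these 4 and in C1qb every butyrate array lay below every untreated array, as in 26.2% of all genes. The median of the 7 was −0.20 against 0.08 over all genes. By probe set, 9 of the 10 were called lower with TSA and 7 of the 10 with butyrate, where 19.8% and 23.8% of all probe sets were. The untreated arrays serve as control in both comparisons, which are therefore not independent. In bulk RNA, fewer cells of a type and less RNA per cell cannot be told apart.

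**Figure D1:**
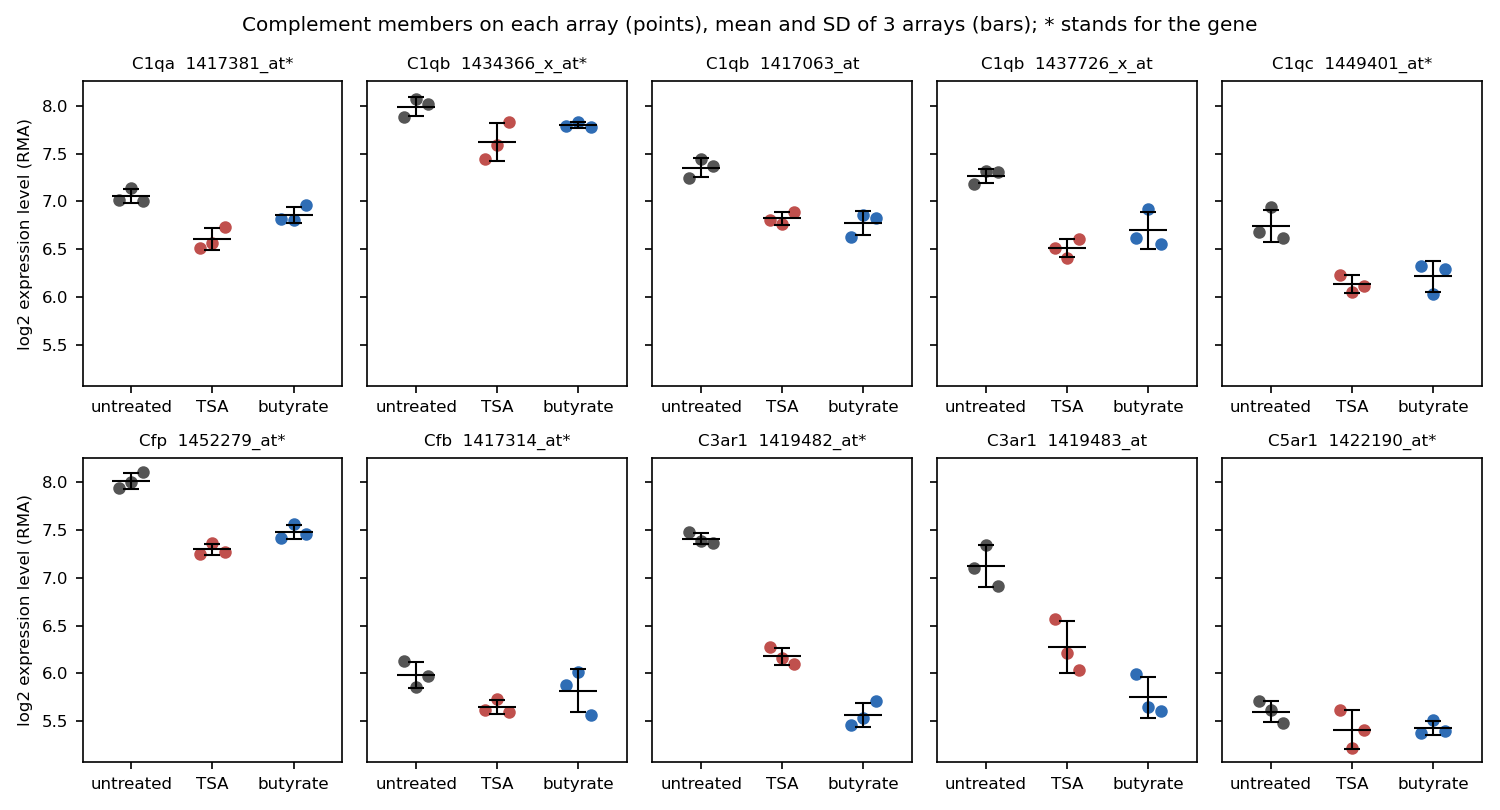
Log2 expression level (vertical axis) of the 10 probe sets of the complement genes on each of the 3 untreated, TSA and butyrate arrays (points), with the mean and SD of each group (bars). The 3 groups of the first C3ar1 probe set do not overlap, with untreated arrays from 7.36 to 7.48, TSA from 6.10 to 6.27 and butyrate from 5.46 to 5.71, while those of C5ar1 do.

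The C1q chains fell modestly. C1qa, the A chain, stood at 7.02, 7.14 and 7.01 in untreated cells, 6.51, 6.57 and 6.73 with TSA, and 6.81, 6.80 and 6.96 with butyrate. Neither treated group overlapped the untreated arrays, and the butyrate arrays lay between the other groups without overlapping them. C1qa fell by 0.45 ± 0.072 (SE, n = 3 arrays per group) with TSA, a 1.37-fold decrease (limma adjusted p = 0.000382). With butyrate it fell by 0.20 ± 0.072 (limma adjusted p = 0.0374). The TSA call was kept under every alternative run. The butyrate call was lost without untreated replicate 1 (−0.22, limma adjusted p = 0.0536), untreated replicate 2 (−0.15, 0.129), butyrate replicate 1 (−0.18, 0.105) or butyrate replicate 2 (−0.17, 0.111), and with a spread that follows the level (0.0527).

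C1qc, the C chain, stood at 6.67, 6.94 and 6.62 in untreated cells, 6.23, 6.05 and 6.12 with TSA, and 6.32, 6.03 and 6.29 with butyrate. Every treated array was below every untreated array, and the treated groups overlapped each other. C1qc fell by 0.61 ± 0.101 with TSA (limma adjusted p = 0.000492) and by 0.53 ± 0.101 with butyrate (0.00115). Both calls were kept under every alternative run.

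The probe sets of C1qb, the B chain, disagreed in size. The representative set, 1434366_x_at, can share probes with other transcripts, and stood at 7.88, 8.07 and 8.02 in untreated cells, 7.44, 7.59 and 7.83 with TSA, and 7.79, 7.83 and 7.77 with butyrate. It fell by 0.37 ± 0.091 with TSA (limma adjusted p = 0.00623) and was not called with butyrate (−0.19 ± 0.091, limma adjusted p = 0.0926), although no butyrate array reached the untreated ones. The set 1417063_at stood at 7.24, 7.44 and 7.37 in untreated cells, 6.81, 6.77 and 6.89 with TSA, and 6.62, 6.86 and 6.83 with butyrate. Its changes were −0.53 with TSA and −0.58 with butyrate (limma adjusted p over all probe sets = 0.000257 and 0.000119). The set 1437726_x_at changed by −0.76 and −0.57 (8.29e-05 and 0.000529). Thus all 3 sets were called lower with TSA and 2 of 3 with butyrate. The call of the gene with butyrate depends on the probe set and on the arrays fitted. The butyrate change was −0.45 (limma adjusted p = 0.000407) with the mean of the sets, −0.57 (0.000446) with the set of largest interquartile range and −0.58 (8.72e-05) with sets that can share probes left out. The representative set itself was called when only the untreated and butyrate arrays were fitted (limma adjusted p = 0.0305) or without TSA replicate 3 (0.0301).

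Of the alternative pathway genes, Cfp (properdin) showed the clearer fall. It stood at 7.94, 8.00 and 8.11 in untreated cells, 7.25, 7.36 and 7.27 with TSA, and 7.42, 7.57 and 7.46 with butyrate. The 3 groups did not overlap, with untreated highest and TSA lowest. Cfp fell by 0.72 ± 0.062 with TSA, a 1.65-fold decrease (limma adjusted p = 4.06e-06), and by 0.54 ± 0.062 with butyrate (3.21e-05).

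Cfb, which encodes factor B, lay lower on the arrays. It stood at 6.13, 5.86 and 5.98 in untreated cells, 5.61, 5.73 and 5.60 with TSA, and 5.88, 6.01 and 5.57 with butyrate. The TSA arrays were all below the untreated ones, and the butyrate arrays spanned both. The TSA change was −0.34 ± 0.109 (limma adjusted p = 0.0253), a call that was lost without untreated replicate 1 (−0.27, limma adjusted p = 0.0986), untreated replicate 3 (−0.34, 0.0522), TSA replicate 1 (−0.32, 0.0708) or TSA replicate 3 (−0.31, 0.0772). With butyrate Cfb was not called (−0.17, 95% interval −0.41 to 0.08).

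The anaphylatoxin receptors differed from each other in what was called. C3ar1, the C3a receptor, stood at 7.48, 7.39 and 7.36 in untreated cells, 6.27, 6.16 and 6.10 with TSA, and 5.46, 5.53 and 5.71 with butyrate. It was the member with the largest change in both comparisons with untreated cells. It fell by 1.23 ± 0.073 with TSA, a 2.35-fold decrease (limma adjusted p = 2.82e-07), and fell by 1.84 ± 0.073 with butyrate, a 3.58-fold decrease (1.38e-08). Its other probe set, 1419483_at, stood at 7.11, 7.35 and 6.91 in untreated cells, 6.57, 6.22 and 6.04 with TSA, and 6.00, 5.65 and 5.60 with butyrate, changes of −0.85 and −1.37 (limma adjusted p over all probe sets = 0.00127 and 3.84e-05). Both sets place untreated cells highest and butyrate lowest, and the C3ar1 calls were kept under every alternative run.

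C5ar1, the C5a receptor, stood at 5.71, 5.61 and 5.48 in untreated cells, 5.61, 5.22 and 5.41 with TSA, and 5.38, 5.51 and 5.39 with butyrate. The groups overlapped, and these levels lie close to 5.289, the 25th percentile of gene means. C5ar1 was not called with TSA (−0.19, 95% interval −0.40 to 0.03, limma adjusted p = 0.147) or butyrate (−0.17, −0.39 to 0.04, 0.151). Without TSA replicate 1 the TSA change was −0.29 and called (limma adjusted p = 0.0226). Whether the receptors changed by different amounts was not tested.

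On the spike-in scale all 7 genes were called lower with butyrate, with C1qb at −0.61, Cfb at −0.58 and C5ar1 at −0.59. Of all 12393 genes, 8417 were called lower with butyrate on that scale. The poly-A spike-in scale also gave 7 of 7, where 3630 of all 12393 genes were called lower. The falls of C1qa, C1qc, Cfp and C3ar1 with butyrate are thus called on each of these scales, and those of Cfb and C5ar1 on the spike-in scales only. C1qb was called on the spike-in scales, and on the deposited scale under the settings given above. With TSA the hybridization scale changed no member's call, and on the poly-A scale, where the spike-ins vary more between arrays, C1qb (limma adjusted p = 0.068) and Cfb (0.1) were not called.

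**Figure D2:**
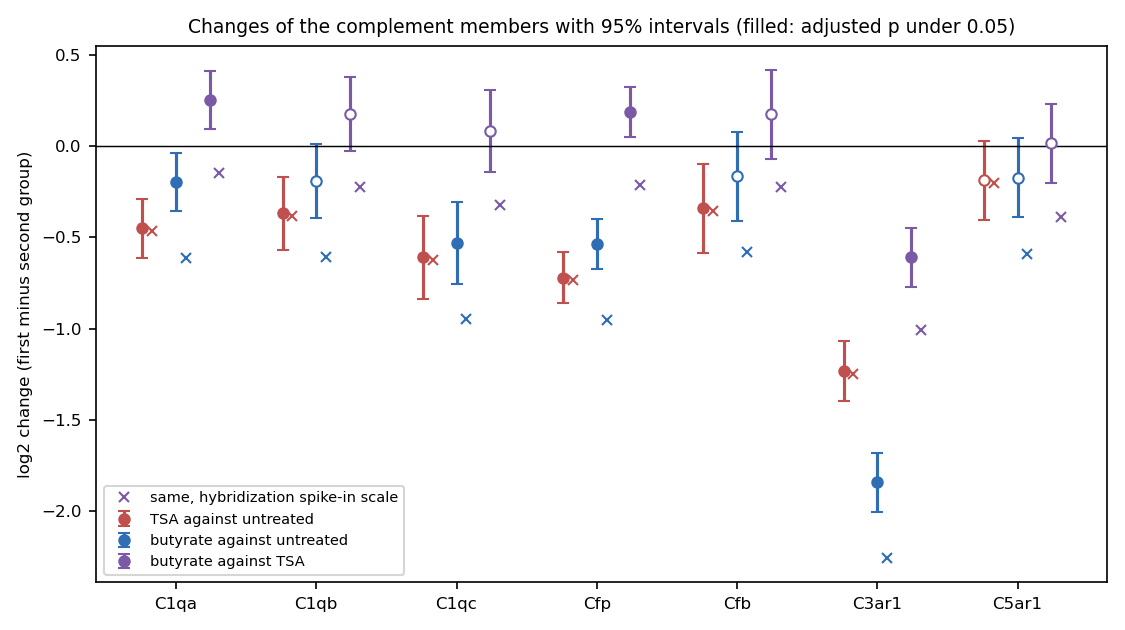
Log2 change (vertical axis) of the 7 complement genes in the 3 comparisons, with 95% intervals from limma (circles, filled where adjusted p was under 0.05) and the same change with arrays shifted to equal hybridization spike-ins (crosses). C3ar1 lies lowest, at −1.23 with TSA and −1.84 with butyrate, and the crosses for butyrate sit 0.415 below their circles against untreated.

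Butyrate and TSA were also compared directly. Of the 7 genes, 2 were higher with butyrate than with TSA and 1 was lower, where 15.9% and 20% of all genes were. The arrays of the treated groups did not overlap in these 3 genes, where 24.5% of all genes had every butyrate array above and 25.8% below every TSA array. By probe set C1qa (higher) and both sets of C3ar1 (lower) were called, against 12.5% and 17.7% of all probe sets, and Cfp missed the threshold (limma adjusted p = 0.0504). C3ar1 was lower with butyrate by 0.61 ± 0.073 (limma adjusted p = 0.000184), and by 0.52 in its other probe set (0.03), and this call was kept under every alternative run. C1qa was 0.25 ± 0.072 higher (limma adjusted p = 0.0207) and Cfp 0.19 ± 0.062 higher (0.0404). These differences turned to −0.15 and −0.22 on the hybridization spike-in scale, so their direction rests on the scaling. The C1qa call was also lost without TSA replicate 1 (0.21), TSA replicate 2 (0.23) or butyrate replicate 3 (0.20), and that of Cfp without untreated replicate 2, TSA replicate 1, TSA replicate 3, butyrate replicate 2 or butyrate replicate 3 (0.14 to 0.20). For C1qb (95% interval −0.03 to 0.38), C1qc (−0.14 to 0.31), Cfb (−0.07 to 0.42) and C5ar1 (−0.20 to 0.23) no difference between the treatments was called on the deposited scale with all arrays. C1qb was called higher with butyrate without TSA replicate 3 (0.28, limma adjusted p = 0.0195), and Cfb without butyrate replicate 3 (0.30, 0.0278). On the hybridization spike-in scale C1qc (−0.32, limma adjusted p = 0.0111), Cfb (−0.23, 0.0329) and C5ar1 (−0.39, 0.00114) were called lower with butyrate, and C1qb was not called (−0.22, 0.0561). Of all 12393 genes, 10047 were called lower with butyrate than with TSA on that scale. On the deposited scale the order of the group means was untreated, TSA, butyrate from high to low for C3ar1, and untreated, butyrate, TSA for the other 6 genes, with the treated groups not told apart in 4 of them. For C1qb this is the order of its representative set, and in 1417063_at TSA (6.82) was above butyrate (6.77). On both spike-in scales butyrate had the lowest mean in all 7 genes. The median change of all genes between butyrate and TSA was −0.367 (hybridization) and −0.239 (poly-A) there.

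The genes whose values over the 9 arrays, centred on their untreated mean, lay nearest to those of C3ar1 were Spint1, Cyp51 and Gtf3c6. Their root mean square differences from C3ar1 were 0.0639, 0.0687 and 0.0708 log2 units. Spint1, a protease inhibitor gene, changed by −1.28 with TSA and −1.85 with butyrate. No other member changed by 1 or more, so no such genes were sought for them.

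The other genes of the pathway moved in both directions. Of 51 listed, 38 were measured, with 2 higher and 10 lower with TSA (median −0.04), where 26.3% and 21% of all genes were. With butyrate 9 were higher and 8 lower (median 0.05), where 33.6% and 24.8% of all genes were. Quantile normalization left 4 rises with butyrate, leaving out untreated replicate 2 left 5, and the hybridization spike-in scale left 2 rises and 31 falls. On the hybridization scale 932 of all 12393 genes were called higher with butyrate and 8417 lower. The list mean on the arrays was 6.06 to 6.08 in untreated, 5.91 to 5.96 in TSA and 5.99 to 6.00 in butyrate samples.

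**Figure D3:**
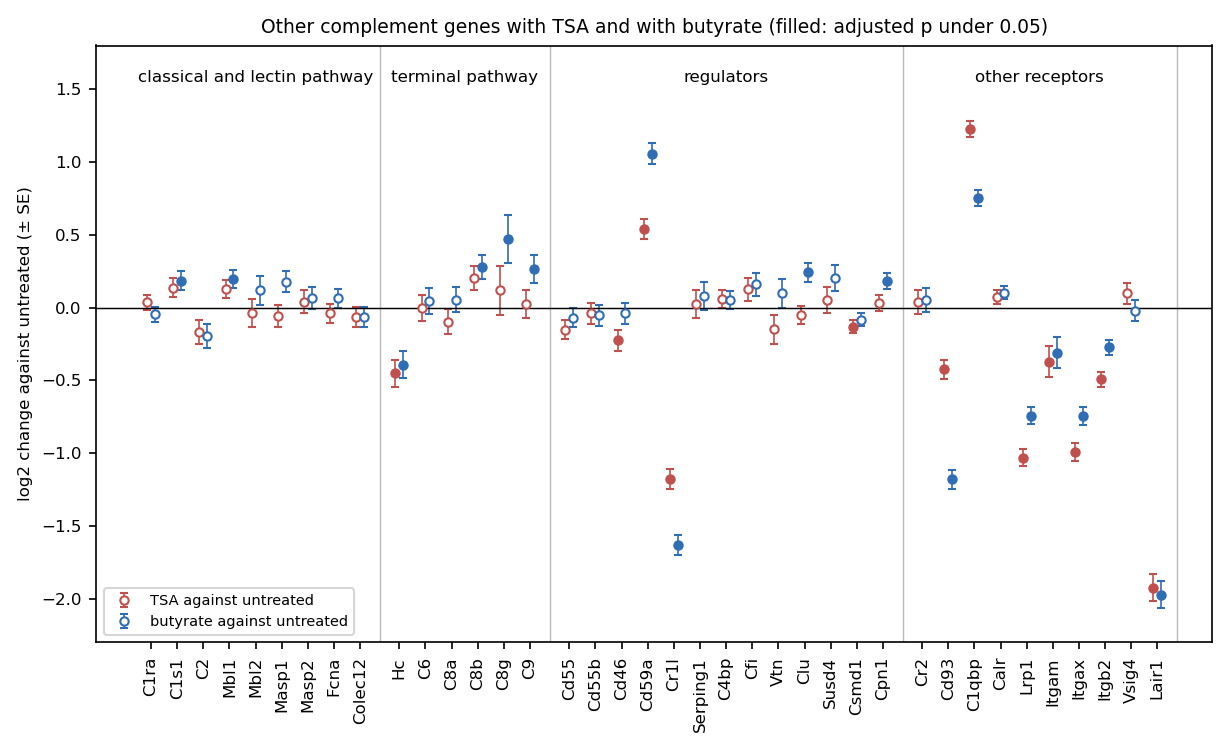
Log2 change against untreated cells (vertical axis, ± SE) of the 38 other complement genes with TSA and butyrate, grouped by role and filled where adjusted p was under 0.05. Most soluble components sit near 0, while Lair1 and Cr1l lie lowest at −1.97 and −1.63 with butyrate, and C1qbp (1.23 with TSA) and Cd59a (1.06 with butyrate) lie highest.

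Genes listed for the classical and lectin pathways gave 0 of 9 calls with TSA by limma, and 0 had an unadjusted p under 0.05. Shares of all genes called higher and lower were 26.3% and 21% with TSA, and 33.6% and 24.8% with butyrate. With butyrate 2 of the 9 rose, C1s1 (0.18), a C1 protease, and Mbl1 (0.20), mannose-binding lectin A, named here after their values were seen. On the hybridization spike-in scale both were called lower (−0.23 and −0.22, limma adjusted p = 0.0231 and 0.025). So were all 9 genes of the list and 8417 of all 12393 genes. Neither rise was called after quantile normalization (0.237 and 0.113), and the calls were lost without untreated replicate 2 or butyrate replicate 2, that of C1s1 also without untreated replicate 3 or butyrate replicate 3. Of 6 terminal pathway genes, also named after their values were seen, Hc (complement C5) fell with both treatments, by 0.45 ± 0.091 with TSA (limma adjusted p = 0.0019) and 0.39 ± 0.091 with butyrate (0.00395). Hc is dim: its untreated mean of 5.31 lay close to 5.289, the 25th percentile of gene means. Its means of 4.86 with TSA and 4.92 with butyrate lay below that level. With butyrate C8b, C8g and C9 were higher by 0.28, 0.47 and 0.26. Their untreated means of 4.95, 4.55 and 5.24 were also below 5.289, as were those of C1s1 (4.26) and Mbl1 (5.22). Leaving out untreated replicate 1 or butyrate replicate 1 ended the C8b call. That of C8g ended without untreated replicate 1 or 2 or any butyrate replicate, and that of C9 without untreated replicate 2, TSA replicate 2, butyrate replicate 1 or butyrate replicate 3. None of these 3 was called on the spike-in scales or after quantile normalization (limma adjusted p = 0.07, 0.0656 and 0.126). On the hybridization scale C8b turned to −0.14 and C9 to −0.15, and C8g was 0.057.

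Among membrane regulators, which protect cells from their own complement, Cr1l fell and Cd59a rose with both treatments. Cr1l (Crry), the main rodent inhibitor of C3 convertases, stood at 9.50, 9.51 and 9.51 in untreated cells, 8.44, 8.30 and 8.25 with TSA, and 7.78, 8.01 and 7.83 with butyrate. The 3 groups did not overlap, and Cr1l fell by 1.18 ± 0.069 with TSA (limma adjusted p = 2.76e-07) and fell by 1.63 ± 0.069 with butyrate (2.18e-08), and was 0.46 lower with butyrate than with TSA (0.000753).

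Cd59a, which blocks the membrane attack complex, stood at 7.52, 7.48 and 7.24 in untreated cells, 8.00, 7.91 and 7.95 with TSA, and 8.45, 8.47 and 8.49 with butyrate. It rose by 0.54 ± 0.071 with TSA (limma adjusted p = 9.37e-05) and 1.06 ± 0.071 with butyrate (5.23e-07). Its other probe set, 1429830_a_at, rose by 1.11 and 1.71. Butyrate exceeded TSA by 0.52, a call lost on the hybridization spike-in scale (0.12, limma adjusted p = 0.217) and the poly-A scale (0.25, 0.257), while both rises against untreated were called on all scales. Cd55 (decay-accelerating factor), likewise named afterwards, was not called on the deposited scale (−0.15 with TSA and −0.071 with butyrate). It was called lower with butyrate on the hybridization spike-in scale (−0.49, limma adjusted p = 8.88e-05) and with TSA after quantile normalization (−0.18, 0.0416). Of the 13 regulators measured, membrane-bound and soluble, 1 rose and 3 fell with TSA, where 26.3% and 21% of all genes did. With butyrate 3 rose and 1 fell, where 33.6% and 24.8% of all genes did. Of the TSA falls, that of Csmd1 (−0.13) kept its call in 1 of 9 fits with 1 array left out, lost in all but the fit without butyrate replicate 3, and that of Cd46 (−0.22) in 5 of 9, lost without any 1 untreated array or without TSA replicate 3. Of the butyrate rises, Clu (0.24) and Cpn1 (0.18) were −0.17 and −0.23 on the hybridization spike-in scale. There 10 of the 13 regulators were called lower and 1, Cd59a, higher, where 8417 and 932 of all 12393 genes were. Csmd1, Cd46, Clu and Cpn1 were named after their values were seen. Csmd1 and Cpn1 are dim, with untreated means of 3.61 and 4.28.

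Among 10 other receptors and binding proteins, 1 rose and 6 fell with each treatment. Over all genes 26.3% were called higher and 21% lower with TSA, and 33.6% and 24.8% with butyrate. Lair1, an inhibitory receptor for collagens and C1q, stood at 8.62, 8.61 and 8.34 in untreated cells, 6.70, 6.63 and 6.47 with TSA, and 6.44, 6.56 and 6.66 with butyrate. It fell by 1.92 ± 0.093 with TSA (limma adjusted p = 7.91e-08) and fell by 1.97 ± 0.093 with butyrate (4.36e-08), and the treated groups overlapped, although butyrate was called lower than TSA on the hybridization spike-in scale (−0.45, 0.000505). Lrp1, an endocytic receptor, fell by 1.03 ± 0.057 and 0.74 ± 0.057. Cd93, once described as a C1q receptor, fell by 0.42 ± 0.064 with TSA and 1.18 ± 0.064 with butyrate, although its dimmer probe set, 1449521_at, was not called (−0.14 and −0.20). C1qbp, a mainly mitochondrial protein that binds C1q, rose by 1.23 ± 0.053 with TSA and 0.75 ± 0.053 with butyrate. The integrin chains of complement receptors 3 and 4, named after their values were seen, fell too: Itgax by 0.99 and 0.74, Itgb2 by 0.49 and 0.27, and Itgam by 0.37 and 0.31. The Itgam calls were lost without untreated replicate 1 or untreated replicate 2, with TSA also without TSA replicate 3, and with butyrate also without butyrate replicate 1 or butyrate replicate 2. The TSA call was also lost on the poly-A scale (limma adjusted p = 0.0659) and the butyrate call when only the groups compared were fitted (0.0528).

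Markers of several cell types were called lower beside the complement genes, among them those of macrophages, a source of C1q. Over all genes 21% were called lower and 26.3% higher with TSA, and 24.8% and 33.6% with butyrate. Several of the lists below lay near these shares. Of 18 measured macrophage markers, 16 fell with TSA and 16 with butyrate, with medians of −0.88 and −0.85. The 1 that rose was Cd163 with TSA (0.27) and Siglec1 with butyrate (0.35, less than the spike-in difference of 0.415), both named after their values were seen. Their list mean was 8.31 to 8.39 on the untreated, 7.31 to 7.41 on the TSA and 7.15 to 7.30 on the butyrate arrays, so the treated groups lay apart from the untreated one. Spic, a transcription factor of red pulp macrophages, changed by −2.73 ± 0.091 with TSA and −2.89 ± 0.091 with butyrate. Tfec, another transcription factor gene, changed by −1.87 and −2.13, and the iron exporter Slc40a1 by −1.66 and −1.84. The C1q chains fell by 0.37 to 0.61 with TSA on their representative sets. RMA values have no 0, so absence of a marker cannot be read. Of 8 monocyte markers 4 fell and 1 rose with TSA, and 4 fell and 2 rose with butyrate. Of 10 neutrophil markers 7 fell with TSA, and 6 fell and 3 rose with butyrate. Of 10 genes that define DC 7 fell with TSA, and 6 fell and 1 rose with butyrate. All 6 plasmacytoid DC markers fell with butyrate and 5 of the 6 with TSA (medians −0.65 and −0.60). Of 7 markers of CD11b-type DC 5 fell with each treatment and 1 rose with butyrate. The 5 erythroid markers gave 4 falls with TSA, and 3 falls and 1 rise with butyrate. Of 6 markers of CD8-type DC 2 fell and 1 rose with TSA, and 3 fell and 2 rose with butyrate. Among 7 B cell markers 3 fell with TSA and 2 with butyrate. The 7 NK cell markers gave 3 falls with TSA, and 2 falls and 1 rise with butyrate. The 8 stromal markers gave 1 fall with TSA, and 1 fall and 3 rises with butyrate. For 7 melanoma markers there were 3 falls and 1 rise with TSA, and 2 falls and 2 rises with butyrate. Of 5 T cell markers 3 fell with TSA, and with butyrate limma called 0, with 0 at an unadjusted p under 0.05. The part of these cell types in the changes of the complement genes was not tested.

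**Figure D4:**
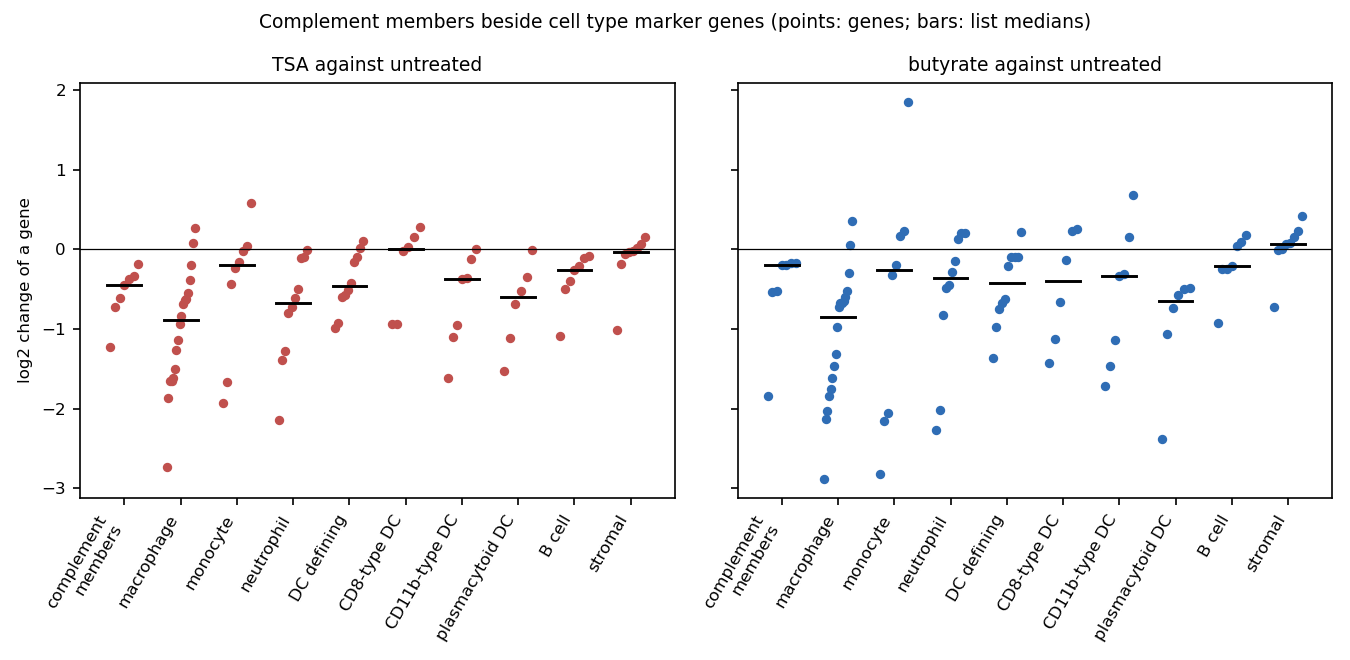
Log2 change against untreated cells (vertical axis) of each measured gene (points) of the complement members and of 9 lists of cell type markers, with list medians (bars), for TSA and for butyrate. The macrophage list has the lowest median in both panels, −0.88 and −0.85, against −0.45 and −0.20 for the complement genes.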

How the data were processed

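The deposited table holds log2 expression values of 22690 probe sets on 9 arrays, made by the authors with RMA per the submitters' processing notes (the program and its version: not given in the sources used here). RMA corrects background, quantile normalizes arrays and summarizes probes, and compresses changes near its floor. The number of arrays, 3 a group, limits the precision. Probe sets with several symbols (691), no name here (1555) or control status (64) entered no gene test. Group means of 12393 genes were estimated from the 9 arrays together in R 4.3.3 by limma 3.58.1 (6 residual and 3.9 prior degrees of freedom), and repeated over 20380 probe sets. The code was tested on simulated data. The members and lists were chosen with earlier results of these data known. All members and probe sets are given; other complement genes are named if called with a log2 change of at least 1, or among the 4 largest called changes of a comparison, and up to 3 genes are named per marker list; further names are said to be chosen afterwards. Alternatives comprised scaling, probe set choice, a filter on dim genes, the spread's prior, array weights, groups fitted, a replicate block and leaving out each array.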

Additional observations from a re-analysis of the deposited data

Results flagged for a closer look

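Hybridization spike-in probe sets, which enter no comparison of genes, were brighter on the butyrate arrays. Their mean over 7 probe sets was 10.37 ± 0.0751 (SD, n = 3) on the untreated, 10.38 ± 0.0299 on the TSA and 10.78 ± 0.063 on the butyrate arrays, a difference of 0.415 between butyrate and untreated arrays. With it subtracted, C1qb, Cfb and C5ar1 were also called lower with butyrate by limma. The same step took the genes called lower from 3075 to 8417 of all 12393. The cause of the spike-in difference was not tested.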

How the results depend on the processing

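Over 420 changes of the 7 members under alternatives, 371 kept their direction and their side of the threshold, 19 lost a call, 14 gained one and 16 reversed. All reversals lie in butyrate against TSA. On the hybridization spike-in scale they are C1qa −0.15, C1qb −0.22, C1qc −0.32, Cfb −0.23, Cfp −0.22 and C5ar1 −0.39, and on the poly-A scale C1qa −0.019, C1qb −0.096, C1qc −0.19, Cfb −0.098, Cfp −0.087 and C5ar1 −0.26. C5ar1 also reversed with quantile normalization (−0.041) and ran from −0.084 (without TSA replicate 2) to 0.12 with 1 array left out (−0.026 without butyrate replicate 2), and C1qb reversed (−0.049) without probe sets that can share probes, an alternative chosen after seeing the data. Other named genes reversed there too: on the hybridization scale Lrp1 −0.11, Hc −0.34, Itgax −0.15, Itgam −0.34 and Itgb2 −0.18, on the poly-A scale Hc −0.21, Itgax −0.026, Itgam −0.21 and Itgb2 −0.055, with quantile normalization Hc −0.013, without butyrate replicate 1 Hc −0.0013 (up to 0.099 without another array) and Lair1 0.0078, and without TSA replicate 1 Lair1 0.0037.

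Counts moved mostly with the spike-in scales, which shift each butyrate value. On the hybridization scale, 7 members were called lower with butyrate in place of 4, and 2 other complement genes were higher and 31 lower in place of 9 and 8. Over all genes 932 were higher and 8417 lower there, in place of 4166 and 3075. For butyrate against TSA this scale gave 0 members higher and 5 lower in place of 2 and 1, 0 other complement genes higher and 29 lower in place of 6 and 3, 7 member probe sets called in place of 3, and 10140 genes called in place of 4448. Of those 10140 genes, 10047 were lower with butyrate. On the poly-A scale 7 members were lower with butyrate, 2 other complement genes were higher, and 0 members and 0 other complement genes were higher than with TSA, while all calls fell to 3201 with TSA and 4458 with butyrate. Of the 4458 genes, 3630 were lower, and over all genes 59 were higher than with TSA. Quantile normalization left 4 other complement genes higher with butyrate. Leaving out 1 array gave 5 to 6 members lower with TSA and 3 to 5 with butyrate, 5 to 10 other complement genes higher with butyrate (5 without untreated replicate 2), 0 to 2 members higher with butyrate than with TSA (0 without TSA replicate 1, 1 without untreated replicate 2, TSA replicate 2, butyrate replicate 2 or butyrate replicate 3) and 1 to 4 member probe sets called between the treatments (1 without TSA replicate 1 or TSA replicate 2). With the replicate block 6 members were lower with TSA and 4 with butyrate, and 5732 and 7089 genes were called. No member's call changed under the block. The labels do not say whether same-numbered samples are paired. Same-numbered deviations from group means correlated between −0.12 and 0.21. Differently numbered pairs were not set beside them, so these values cannot decide whether samples are paired. Dim genes such as C5ar1 and the soluble components limit what can be seen.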
